A study of Mus musculus with 1 sample.

Results

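Genes for peptide and protein hormones of fetal Leydig cells, and for receptors of such hormones, were followed across the cells of a fetal mouse testis. The set held 9 of the 22631 features of the count matrix. The hormone genes were *Insl3*, *Nppc*, *Nts*, *Npy* and *Ren1*, and the receptor genes were *Lhcgr*, *Rxfp2*, *Npr2* and *Npr3*. They were chosen from the leading genes of Leydig-like cells of this same library and from receptors of their products, so a high level in Leydig-like cells is given as a description and not as a finding. The set is not made of Leydig genes alone: *Rxfp2* had no UMI in Leydig-like cells, and *Npr2* and *Npr3* had 6 and 5.

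The cells came from testes of pooled controls, labelled as 12 at E14.5 with the genotype WT. Whether the label counts fetuses or testes is not given, and the study's text counts 12 control testes. The study's text names E13.5 as well as E14.5, and its methods name as controls *Nr5a1* L2/L2 fetuses, which carry loxP-flanked alleles of *Nr5a1* without the Cre transgene that deletes the gene in Sertoli cells of mutants. The mice were of a mixed C57BL/6 and 129/SvPass background. The controls gave 1 droplet library and that of the mutants is not analysed here, so there was no replicate, no test was made, and every interval given is an exact 95% interval that covers counting error only.

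Fetal Leydig cells lie between the testis cords and make androgens from cholesterol, with STAR carrying cholesterol into mitochondria and CYP11A1, CYP17A1 and HSD3B1 converting it. They also secrete INSL3, a relaxin-family hormone that acts through RXFP2 on the gubernaculum and drives the descent of the testis. Luteinizing hormone acts on them through LHCGR. C-type natriuretic peptide (*Nppc*) signals through the guanylyl cyclase NPR2 and is cleared by NPR3. Renin (*Ren1*) cleaves angiotensinogen, and neurotensin (*Nts*) and neuropeptide Y (*Npy*) are best known from neurons and gut.

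The matrix gave counts of unique molecular indices (UMIs), which mark captured RNA molecules, and 3821 cells remained of 5421 barcodes after removal of shallow barcodes, likely doublets and outlier cells. They fell into 17 clusters, of which 14 could be named from marker genes that include none of the 9 genes. Leydig-like cells numbered 311, or 8.14% of the cells (7.29 to 9.05%), in 2 clusters. Each of the 8 Leydig markers was detected in both. Steroidogenic cells numbered 127, at a median depth of 21399 UMIs. Low-steroid cells numbered 184, at a median depth of 13630 UMIs, and were set apart by a summed level of *Star*, *Cyp11a1*, *Cyp17a1* and *Hsd3b1* under 0.5 times that of the others. The level of a gene in a cluster is its UMIs per 1000000 UMIs of all cells of that cluster (CPM). Since 8 of the 9 genes were among the variable genes used for clustering, their differences between clusters are descriptions too.

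**Figure D1:**
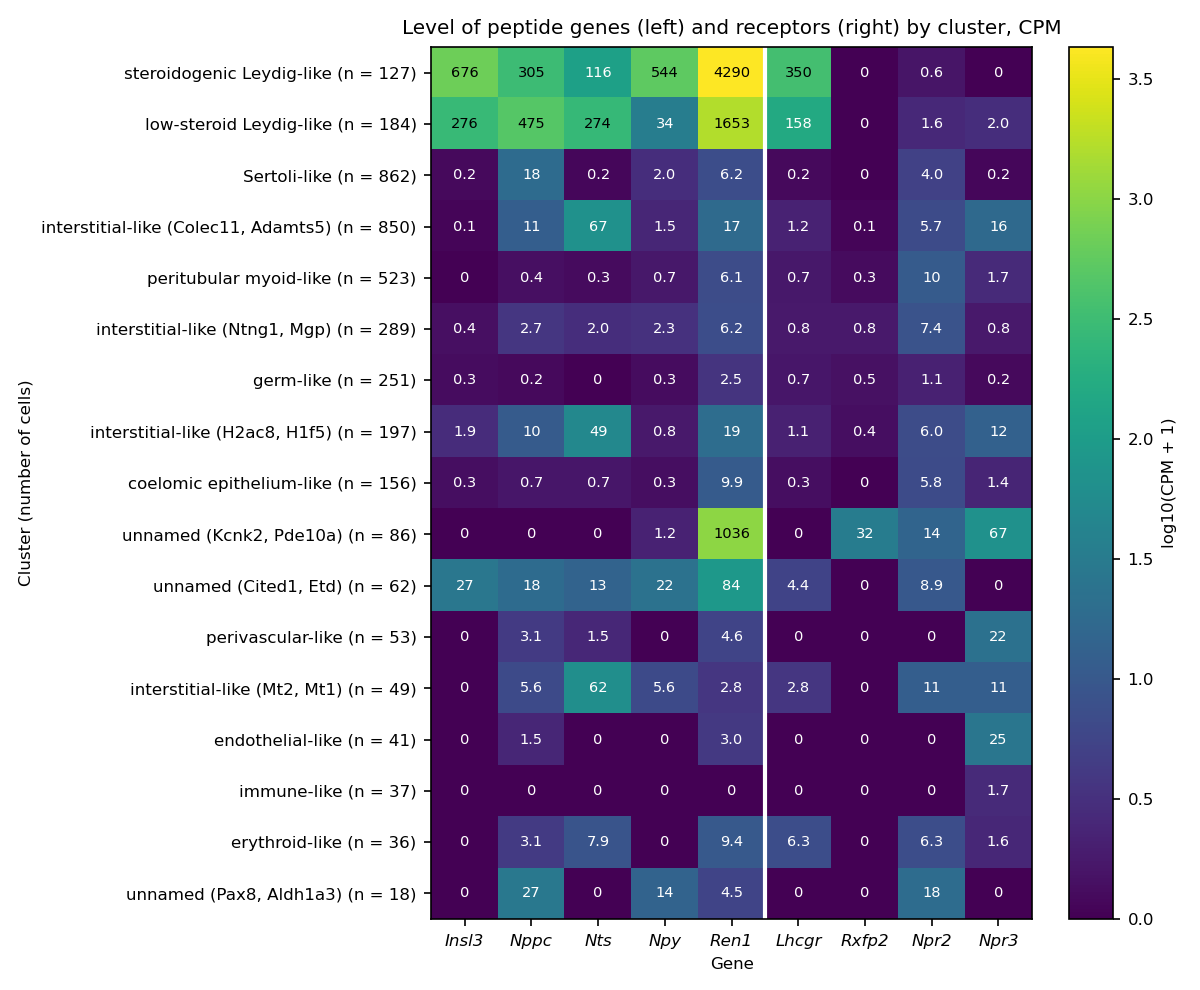
Levels in CPM of the 5 hormone genes (left of the white line) and the 4 receptor genes (right) in the 17 clusters, coloured on a log10(CPM + 1) scale. *Insl3*, *Npy*, *Ren1* and *Lhcgr* were highest in steroidogenic and *Nppc* and *Nts* in low-steroid Leydig-like cells, whereas *Rxfp2* and *Npr3* were highest in an unnamed cluster with *Kcnk2* and *Pde10a* among its leading genes.

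*Insl3* (ENSMUSG00000079019; chromosome 8, 71689214 to 71690575, plus strand) encodes insulin-like peptide 3. Its level was 676 CPM (648 to 705) in steroidogenic and 276 CPM (255 to 297) in low-steroid Leydig-like cells. In the steroidogenic cluster all 127 cells had a UMI, with a median of 15 per cell, quartiles of 11 and 22 and a maximum of 49. In the low-steroid cluster 126 of 184 cells had a UMI (68.5%, 61.2 to 75.1%), with a median of 2 and a maximum of 22. After each cell was thinned at random to 5000 UMIs, so that depth no longer differed, the shares were 96.8% and 55.2%. Sertoli-like cells, which are not known to make the hormone, had a UMI in 0.348% of 862 cells (0.118% thinned) at a median depth of 14326 UMIs. Of the 2855 *Insl3* UMIs in kept cells, 99.3% were in Leydig-like cells. The next cluster in the order of levels, an unnamed shallow cluster led by *Cited1* and *Etd*, had 6 UMIs, all in 2 of its 62 cells.

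The *Insl3* count carries an annotation limit. *Insl3* lies within the span of *Jak3* on the same strand, and 404 of its 623 exonic bases are also exonic in 2 of the 5 annotated *Jak3* transcripts. How reads there were counted was not tested, so the *Insl3* level is uncertain. *Jak3* had 94.2 CPM in steroidogenic, 24.4 CPM in low-steroid Leydig-like and 1.30 CPM in all other cells, an order like that of *Insl3*.

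*Lhcgr* (ENSMUSG00000024107; chromosome 17, 88716481 to 88791990, minus strand), the receptor for luteinizing hormone, stood at 350 CPM (330 to 371) in steroidogenic cells. In low-steroid cells it stood at 158 CPM (143 to 174). A UMI was found in 121 of 127 steroidogenic cells (95.3%; 78.4% thinned) and in 109 of 184 low-steroid cells (59.2%; 38.3% thinned). Outside the Leydig-like clusters no cluster passed 6.30 CPM, and the levels of neighbouring clusters in the order overlapped from the erythroid-like cluster (4 UMIs) downwards. In Sertoli-like cells 0.348% had a UMI, as had 2.39% of the deeper germ-like cells (median 36155 UMIs).

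*Ren1* (ENSMUSG00000070645; chromosome 1, 133350510 to 133360325, plus strand) encodes renin, the protease that starts the formation of angiotensin. It had 4290 CPM (4219 to 4363) in steroidogenic and 1653 CPM (1603 to 1704) in low-steroid Leydig-like cells. Single cells ranged widely. Steroidogenic cells had a median of 77 *Ren1* UMIs, with quartiles of 20 and 167.5 and a maximum of 541. Low-steroid cells had a median of 1 and a maximum of 281, and the 19 cells with the most UMIs held 60.8% of that cluster's *Ren1* UMIs. A UMI was seen in 96.9% and 61.4% of the cells, respectively, and in 90.4% and 49.7% after thinning. Strains of the 129 family carry *Ren2*, a near copy of *Ren1* that is not in the count matrix, so *Ren1* counts may include its RNA and cannot be told apart from it.

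*Ren1* was also high in a cluster with hardly any steroid enzyme RNA. This unnamed cluster, with *Kcnk2* and *Pde10a* among its leading genes, held 86 cells at a median of 7967 UMIs, and had 831 *Ren1* UMIs or 1036 CPM (967 to 1109). The gene was seen in 52 of the 86 cells (60.5%, 49.3 to 70.8%; 51.9% thinned), with 10 or more UMIs in 23 cells and up to 97 in a cell. The same cells had 5 *Cyp17a1* UMIs and no UMI of *Insl3* or *Lhcgr*. Per 100 *Cyp17a1* UMIs there were 28.1 *Ren1* UMIs in steroidogenic and 41.0 in low-steroid Leydig-like cells, 47.9 in Sertoli-like cells and 32.8 in germ-like cells, and 16620 in this cluster, where the ratio rests on the 5 *Cyp17a1* UMIs. In the other clusters it was at most 156, in the interstitial-like cluster led by *H2ac8* and *H1f5*, and 130.5 in that led by *Colec11* and *Adamts5*. The cluster stayed unnamed because its nearest marker list, interstitial, reached a mean log2 ratio of 0.80 where 1 was required.

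*Npy* (ENSMUSG00000029819; chromosome 6, 49822710 to 49829507, plus strand), the gene of neuropeptide Y, differed most between the Leydig-like clusters among the members. It had 544 CPM (518 to 570) in steroidogenic and 33.6 CPM (26.8 to 41.6) in low-steroid cells. The median was 5 UMIs in a steroidogenic cell, with quartiles of 1 and 15 and a maximum of 117. A UMI was seen in 99 of 127 steroidogenic cells (78.0%, 69.7 to 84.8%; 54.4% thinned). In the low-steroid cluster 16 of 184 cells had a UMI (8.70%; 5.46% thinned), and 1 of them alone held 45 of the 84 UMIs. Steroidogenic cells held 92.0% of all *Npy* UMIs. In Sertoli-like cells 3.02% had a UMI, never more than 1.

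*Nppc* (ENSMUSG00000026241; chromosome 1, 86666291 to 86670571, minus strand), the gene of C-type natriuretic peptide, was higher in the low-steroid cluster. Its level was 475 CPM (448 to 502) there and 305 CPM (286 to 325) in steroidogenic cells. The share of cells with a UMI went the other way, with 58.7% of low-steroid and 90.6% of steroidogenic cells as read, and 48.1% and 64.8% thinned. Low-steroid cells were uneven, with a median of 1 UMI, a maximum of 104, and 61.1% of the UMIs in 19 cells. The 127 steroidogenic cells had a median of 5 and a maximum of 81. The higher level of the low-steroid cluster thus lay in a minority of its cells.

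*Nppc* was found in Sertoli-like cells at a lower level. They had 227 UMIs or 17.5 CPM (15.3 to 19.9), with a UMI in 151 of 862 cells (17.5%, 15.0 to 20.2%; 7.08% thinned) and at most 7 in a cell. Germ-like cells, at a median of 36155 UMIs against 14326, had a UMI in 0.797% (0.405% thinned), and peritubular myoid-like cells in 0.574% (0% thinned). There were 136 *Nppc* UMIs for every 100 *Cyp17a1* UMIs in Sertoli-like cells, against 2.0 in steroidogenic and 11.8 in low-steroid Leydig-like cells and 2.99 in germ-like cells. Interstitial-like cells led by *Colec11* and *Adamts5* had 11.1 CPM (8.93 to 13.6) and 85.7 *Nppc* UMIs for every 100 of *Cyp17a1*. Levels of 27.1 CPM in the unnamed cluster led by *Pax8* and *Aldh1a3* and of 17.7 CPM in that led by *Cited1* and *Etd* rested on 6 and 4 UMIs, and their intervals overlapped that of Sertoli-like cells.

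*Nts* (ENSMUSG00000019890; chromosome 10, 102481756 to 102490486, minus strand), the gene of neurotensin, reached 20 CPM in 5 clusters. *Ren1* did so in 4 and each other hormone gene in 3. Counted by any UMI, *Ren1*, *Nppc* and *Npy* were in more clusters than *Nts*. The level of *Nts* was 273.5 CPM (253 to 295) in low-steroid and 116 CPM (105 to 129) in steroidogenic Leydig-like cells. Most cells had none. A UMI was seen in 74 of 184 low-steroid cells (40.2%, 33.1 to 47.7%; 35.0% thinned) and in 35 of 127 steroidogenic cells (27.6%, 20 to 36.2%; 16.8% thinned). In those that had it the count could be high, with up to 49 and 70 UMIs, and the 13 highest steroidogenic cells held 79.4% of that cluster's UMIs.

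Leydig-like cells held 59.5% of the *Nts* UMIs, and interstitial-like clusters most of the rest. Of the 1053 *Nts* UMIs of Leydig-like cells, 216 were in 59 low-steroid cells with hardly any steroid enzyme RNA. These cells, described below, were at or below the 99th percentile of non-Leydig cells for that RNA, so the share depends on counting them as Leydig-like. In the cluster led by *Colec11* and *Adamts5*, 99 of 850 cells had a UMI (11.6%, 9.57 to 14.0%; 9.05% thinned), 13 cells had 10 or more and the highest had 54. Its level was 67.3 CPM (61.8 to 73.2). The dividing interstitial-like cluster led by *H2ac8* and *H1f5* had 48.6 CPM (40.6 to 57.8), from 15 of 197 cells. A level of 61.6 CPM in the interstitial-like cluster led by *Mt2* and *Mt1* came from 22 UMIs, of which 19 were in 1 cell. Sertoli-like cells had 2 *Nts* UMIs in 862 cells and germ-like cells had 0 in 251, which by 3 counts allows a UMI in up to 1.2% of cells and sets no limit on cells that express the gene.

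**Figure D2:**
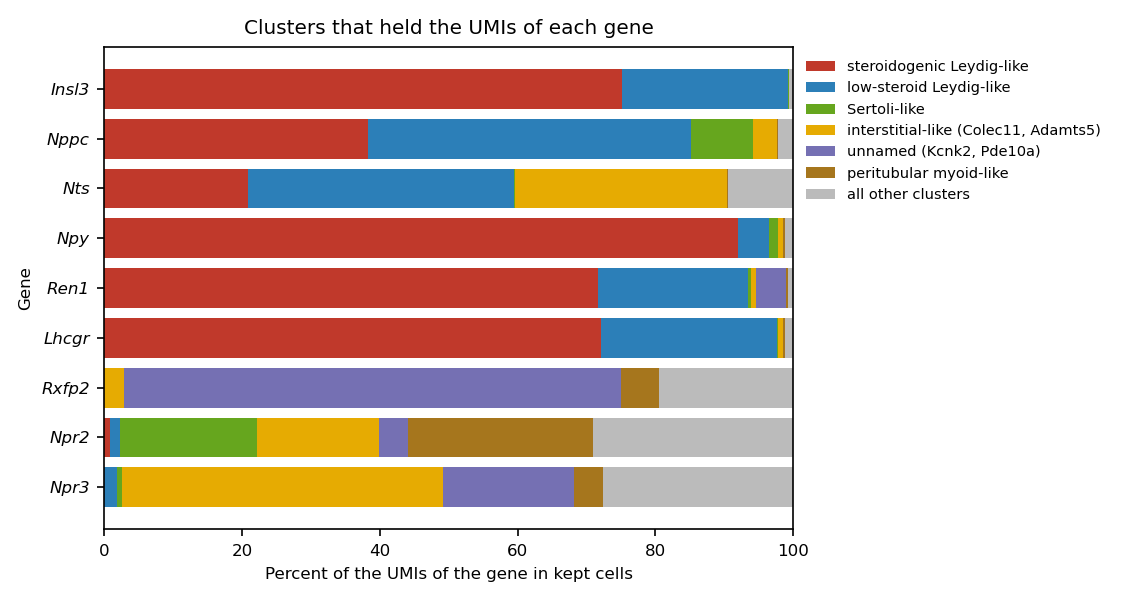
Percent of the UMIs of each gene in kept cells that fell in each cluster, with clusters outside the 6 shown added together. Leydig-like cells held 99.3% of *Insl3* and 59.5% of *Nts* UMIs, and the unnamed cluster marked by *Kcnk2* and *Pde10a* held 72.2% of the *Rxfp2* UMIs. Of the *Nts* UMIs of Leydig-like cells, 216 were in 59 low-steroid cells with hardly any steroid enzyme RNA.

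Sequence just upstream of the annotated starts is shown for 4 members, *Nppc* and *Nts*, which were higher in low-steroid cells, and *Ren1* and *Lhcgr*, which were higher in steroidogenic cells, since these held one of the motifs searched. The sequences are RefSeq's on GRCm38.p6, each 250 bases that end at the base before the RefSeq start. They are read 5′ to 3′ on the strand of the gene, with motif matches in capitals. The RefSeq starts differ from the gene bounds given above, which follow GENCODE. For *Ren1* and *Nts* the stretch thus lies in part inside those bounds.
*Nppc*, chr1:86670574-86670823, minus strand: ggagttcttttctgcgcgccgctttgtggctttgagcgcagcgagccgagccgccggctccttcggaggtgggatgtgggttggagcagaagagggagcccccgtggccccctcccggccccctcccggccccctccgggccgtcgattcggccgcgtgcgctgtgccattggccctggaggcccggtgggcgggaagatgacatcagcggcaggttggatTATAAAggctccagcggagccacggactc
*Ren1*, chr1:133350424-133350673, plus strand: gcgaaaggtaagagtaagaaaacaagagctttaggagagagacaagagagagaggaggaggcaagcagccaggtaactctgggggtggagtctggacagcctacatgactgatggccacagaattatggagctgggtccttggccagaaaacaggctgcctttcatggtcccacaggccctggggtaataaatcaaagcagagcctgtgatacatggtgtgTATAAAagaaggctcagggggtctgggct
*Lhcgr*, chr17:88792015-88792264, minus strand: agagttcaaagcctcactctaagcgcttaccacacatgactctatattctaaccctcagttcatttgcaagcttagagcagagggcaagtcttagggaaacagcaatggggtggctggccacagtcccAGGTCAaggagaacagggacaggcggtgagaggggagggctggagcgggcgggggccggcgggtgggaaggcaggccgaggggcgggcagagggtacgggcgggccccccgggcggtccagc
*Nts*, chr10:102490419-102490668, minus strand: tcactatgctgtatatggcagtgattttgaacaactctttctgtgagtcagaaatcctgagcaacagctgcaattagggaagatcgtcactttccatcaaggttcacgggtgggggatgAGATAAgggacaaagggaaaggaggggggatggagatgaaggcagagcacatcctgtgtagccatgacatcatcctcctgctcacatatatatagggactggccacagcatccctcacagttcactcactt
Both strands of the 300 bases from 250 before to 50 after the start were searched in all 9 members, each matched in the RefSeq table, and in 32851 promoters in all. AAGGTCA, an exact sequence that NR5A1 can bind, was in none of the 9 and in 4.72% of all promoters. Variant forms of the NR5A1 site were not searched, so the 9 may hold such forms. AGATAA, bound by GATA factors, was in *Nts* alone, beginning 131 bases before its start, and in 11.2% of all. The shorter AGGTCA, contained in AAGGTCA, was in *Lhcgr* alone, 122 bases before its start, and in 16.3% of all. TATAAA began 29 bases before the start in both *Nppc* and *Ren1* and was in 13.6% of all. TGACGT, bound by cAMP-responsive factors, was in none of the 9 and in 7.51% of all. The last 3 motifs were added after the levels were known. A match is a run of letters and not evidence of binding, and no match says only that the letters are not in this window.

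Set side by side, steroidogenic over low-steroid cells, the ratio of levels was 2.45 (2.25 to 2.68) for *Insl3*, 2.22 (1.97 to 2.49) for *Lhcgr*, 2.60 (2.51 to 2.69) for *Ren1* and 16.2 (13.0 to 20.4) for *Npy*. It was 0.643 (0.590 to 0.701) for *Nppc* and 0.425 (0.373 to 0.483) for *Nts*. For comparison, the ratio was 5.16 for *Star*, 4.41 for *Cyp11a1*, 3.78 for *Cyp17a1* and 3.30 for *Hsd3b1*, the genes that defined the contrast. *Insl3*, *Lhcgr* and *Ren1* thus differed less between the clusters than any of these 4, and *Npy* more. With 5 CPM added to both sides, 6 of the 9 members had the 20 UMIs required, and 4 of them were at least 2-fold higher in steroidogenic cells and 1, *Nts*, at least 2-fold lower, where 4.76% and 9.57% of the 10161 genes compared were. The median log2 ratio was 1.2 over these 6 members and -0.17 over all genes. The members were picked for their height in these cells, so nothing is read from these shares.

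**Figure D3:**
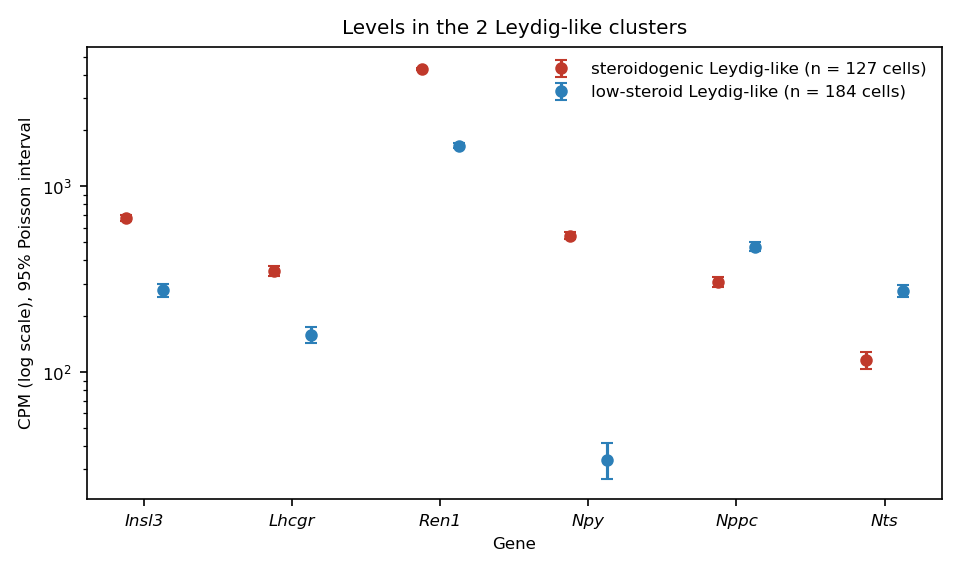
Levels in CPM (log axis) of 6 genes in the 127 steroidogenic (red) and 184 low-steroid (blue) Leydig-like cells, with exact Poisson 95% intervals that cover counting error only. *Npy* stood at 544 against 33.6 CPM, whereas *Nppc* and *Nts* were higher in low-steroid cells.

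With 5 CPM added to both sides, 6 of the 9 members were at least 2-fold higher in Leydig-like than in all other cells. None was 2-fold lower. Over 14420 genes the shares were 4.42% and 9.68%. The added 5 CPM hides differences at low levels. Leydig-like cells, with 5675569 of the 54774213 UMIs of kept cells, held 2.30% of *Npr2*, 1.77% of *Npr3* and 0% of *Rxfp2* UMIs. The rule used this contrast, so nothing is read from it.

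The size of the differences depended on which cells counted as low-steroid. When only the 125 cells of that cluster with steroid enzyme RNA above the 99th percentile of non-Leydig cells were compared, an alternative added after the data had been seen, *Npy* alone stayed past 2-fold higher, and *Nppc* joined *Nts* past 2-fold lower. Log2 ratios were then 0.78 for *Insl3*, 0.67 for *Lhcgr*, 0.86 for *Ren1*, 3.37 for *Npy*, -1.14 for *Nppc* and -1.2 for *Nts*, each with the sign it had over the whole cluster.

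The low-steroid cluster was mixed, and its 2 portions differed in their hormone genes. The 59 cells at or below that percentile (299.6 CPM of the 4 steroid genes together) had 26.4 CPM of *Insl3* (16.4 to 40.4), whereas the 125 cells above it had 391.6 CPM (362 to 422). *Lhcgr* had 30.2 and 217.5 CPM in the same order, *Ren1* 121 and 2366 CPM, and *Nppc* 39.0 and 678 CPM. *Npy* was low in both, with 2.52 and 48.1 CPM. *Nts* had 272 CPM (237 to 310.5) in the cells below and 274 CPM (250 to 300.4) in those above, although 28.8% of the cells below and 45.6% of those above had a UMI as read. Cells below the percentile also had 204 CPM of the interstitial marker *Pdgfra* and 184 CPM of the proliferation gene *Mki67*. Those above had 26.4 and 63.9 CPM, and steroidogenic cells 7.56 and 1.89 CPM. Not all interstitial markers fell in this order. *Sfrp1* had 367 CPM below, 714 CPM above and 281 CPM in steroidogenic cells, and *Inhba* had 282, 104 and 142 CPM. Cell-cycle scores, read without thinning, called 36 of these 59 cells, 28 of the 125 and 1 of the 127 steroidogenic cells in S or G2/M phase. The part of proliferation or of cells of another type in the levels was not tested.

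The order of the genes along the steroid enzyme level was then laid out over all 311 Leydig-like cells, cut into 6 ranges of 51 or 52 cells by the summed level of the 4 steroid genes. All cells of the lowest 2 ranges belonged to the low-steroid cluster, and 49 of the 51 cells of the highest to the steroidogenic. Median depth went from 13184 UMIs per cell in the lowest to 21622 in the highest range. *Nts* had 275 CPM (238 to 317) in the lowest range, 267.5 CPM (231 to 308) in the next, which overlapped with it, 125 CPM (105 to 147) in the fifth and 136 CPM (117 to 158) in the sixth. *Insl3* had 21.3 CPM (11.9 to 35.1) in the lowest range, 129 CPM in the next, 427.5 CPM in the third and 762 CPM (715 to 811) in the sixth. *Lhcgr* went from 32.6 CPM (20.7 to 49.0) through 86.4 and 266 CPM to 338 CPM (303 to 376) in the fourth, and the intervals of the upper 3 ranges overlapped.

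*Nppc* was the gene with a peak in the middle. It had 35.5 CPM (23.0 to 52.4) in the lowest range, 702 CPM (644 to 764) in the third, 695 CPM (644.5 to 748) in the fourth and 267.5 CPM (240 to 297) in the sixth. *Ren1* had 133 CPM in the lowest range and 2446 CPM in the third, and stood between 4235 and 4812 CPM in the upper 3. *Npy* was nearly absent from the lower ranges, with 2 UMIs in the lowest 2 ranges together, 27.2 CPM (16.8 to 41.6) in the third, 332 CPM (298 to 369.5) in the fourth, 696 CPM (649 to 746) in the fifth and 497 CPM (459 to 536) in the sixth. Shares of cells after thinning went broadly with the levels for *Npy* and in part for *Nppc* and *Nts*. For *Npy* they were 0% in the lower 2 ranges, 9.62% in the third, 42.3% in the fourth, 60% in the fifth and 42.0% in the sixth. For *Nppc* they were 15.4% in the lowest range, 80.8% in the fourth and 62.0% in the sixth. For *Nts* they were 25% in the lowest range, 38.5% in the next, 30.8% in the third and in the fourth, 22% in the fifth and 18% in the sixth, so the lowest range did not have the highest share. The cells are of 1 pooled library, so the ranges give an order of levels and not an order in time.

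**Figure D4:**
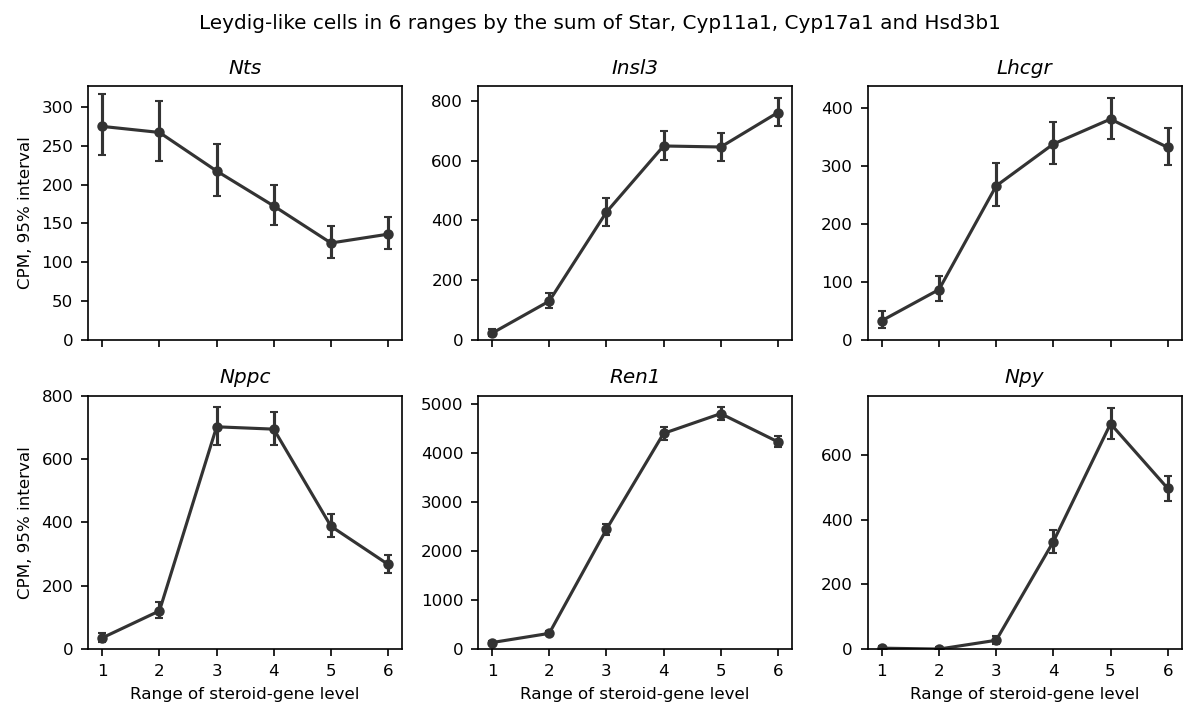
Levels in CPM with exact Poisson 95% intervals of 6 genes in 6 ranges of 51 or 52 Leydig-like cells each, from the lowest (1) to the highest (6) summed level of *Star*, *Cyp11a1*, *Cyp17a1* and *Hsd3b1*. *Nts* was highest in ranges 1 and 2, *Nppc* in ranges 3 and 4 and *Npy* in range 5, while *Insl3*, *Lhcgr* and *Ren1* were each higher in ranges 4 to 6 than in ranges 1 to 3.

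Single cells often held RNA of several hormone genes at once. Of the 5 hormone genes, 4 were seen together in 68 of 127 steroidogenic cells (53.5%), all 5 in 27 (21.3%) and 3 in 28, and no cell had fewer than 2. Low-steroid cells had 2 of the 5 most often (50 of 184 cells, 27.2%), and 17 cells had none. *Insl3* and *Ren1* were seen in the same cell in 123 of 127 steroidogenic and in 88 of 184 low-steroid cells. All 127 steroidogenic cells had *Insl3*, so the 123 are simply those with *Ren1*. *Npy* was seen with *Ren1* in each of the 99 steroidogenic cells that had it. *Nts* and *Npy* shared 29 steroidogenic cells, of 35 with *Nts* and 99 with *Npy*. These counts are as read and move with depth. They were not set against the counts that each gene's own share of cells would give.

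Across single cells of the low-steroid cluster, log levels of *Insl3* were correlated with the summed steroid level (Pearson's r = 0.847 over 184 cells), and so were those of *Nppc* (0.6995), *Ren1* (0.6705) and *Lhcgr* (0.632). The value for *Nts* was 0.0574. Within the 127 steroidogenic cells the values with the steroid sum were between -0.19 for *Nppc* and 0.305 for *Insl3*, and the highest between members was 0.349, for *Npy* with *Ren1*. The cells share a library and differ in depth, so these correlations are descriptions.

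Of the receptor genes of the set, *Rxfp2*, *Npr3* and *Npr2* were found mainly away from Leydig-like cells. *Rxfp2* (ENSMUSG00000053368; chromosome 5, 150018675 to 150082184, plus strand), the INSL3 receptor, had 36 UMIs in all kept cells, and 26 of them were in the unnamed cluster marked by *Kcnk2* and *Pde10a*. There its level was 32.4 CPM (21.2 to 47.5), with a UMI in 21 of 86 cells (24.4%, 15.8 to 34.9%; 16.0% thinned) and at most 3 in a cell. No other cluster passed 0.781 CPM, and the levels of those that had a UMI overlapped. Of the 311 Leydig-like cells none had a UMI, which allows up to 0.945 CPM in steroidogenic and 1.2 CPM in low-steroid cells by a limit of 3 counts. Germ-like cells had 4 UMIs in 3 of 251 cells.

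*Npr3* (ENSMUSG00000022206; chromosome 15, 11839896 to 11907287, minus strand), the clearance receptor of natriuretic peptides, was highest in the same unnamed cluster. It had 67.3 CPM (50.6 to 87.8) there, with a UMI in 38 of 86 cells (44.2%; 25.9% thinned). Endothelial-like cells followed with 25.4 CPM (14.8 to 40.7), of which 10 of the 17 UMIs were in 1 cell, then perivascular-like cells with 21.6 CPM (11.8 to 36.2) and interstitial-like cells led by *Colec11* and *Adamts5* with 16.3 CPM (13.6 to 19.3). Neighbours in this order after the highest overlapped. The *Colec11* cluster, the largest of these, held 46.6% of all *Npr3* UMIs. Leydig-like cells had 5 UMIs, all in low-steroid cells at or below the steroid percentile, and Sertoli-like cells had 2.

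*Npr2* (ENSMUSG00000028469; chromosome 4, 43631935 to 43651244, plus strand), the signalling receptor of the *Nppc* product, was low in every cluster and never reached 20 CPM. Peritubular myoid-like cells had 10.1 CPM (7.87 to 12.8), with a UMI in 63 of 523 cells (12.0%; 5.26% thinned), and held 26.8% of its 261 UMIs. The unnamed clusters marked by *Kcnk2* and *Pde10a* (13.7 CPM, 6.85 to 24.5) and led by *Pax8* and *Aldh1a3* (18.1 CPM, 4.93 to 46.3) overlapped with them. Sertoli-like cells had 4.01 CPM (3.00 to 5.26) and interstitial-like cells of the *Colec11* cluster 5.67 CPM (4.15 to 7.57). Leydig-like cells had 2 UMIs in the steroidogenic cluster (0.630 CPM, 0.0763 to 2.28) and 4 in the low-steroid cluster (1.60 CPM, 0.436 to 4.09). Genes annotated on the opposite strand overlap *Rxfp2*, *Npr2* and *Npr3*, and *Gm42558* lies in an intron of *Rxfp2* on the same strand. Whether these overlaps changed the counts of the receptors was not tested.

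Genes of the same pathways, from a list of 55 that were all in the matrix, filled in the rest of each axis. In 26 of them a cluster reached 10 CPM, and 10 of these 26 were highest in a Leydig-like cluster. Among the 10 were the 6 genes of steroid synthesis. Of those, *Star*, *Cyp11a1*, *Cyp17a1*, *Hsd3b1* and *Fdx1* were markers by which the Leydig-like clusters were named, so their place was given. Outside that group they were *Agt*, *Pcsk5*, *Pcsk6* and *Chga*. The share over all genes was not taken, so nothing is read from this count. *Fdx1* and *Fdxr*, which pass electrons to mitochondrial CYP11A1, had 5558 and 1259 CPM in steroidogenic cells. In the renin-angiotensin group 6 of 9 genes reached 10 CPM. *Agt*, the substrate of renin, was highest in low-steroid Leydig-like cells with 74.0 CPM (63.7 to 85.4), beside 58.0 CPM (49.9 to 67.0) in steroidogenic cells, with overlapping intervals. It was seen in 19.0% and 35.4% of these cells.

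*Ren1* and the angiotensin genes met again in the unnamed cluster marked by *Kcnk2* and *Pde10a*. It was the cluster with the highest *Enpep*, a peptidase that trims angiotensins (166 CPM, 139 to 196.5), and with the highest *Agtr2*, an angiotensin receptor (76.1 CPM, 58.2 to 97.7). *Agtr1a*, the other main angiotensin receptor, was highest in perivascular-like cells with 16.9 CPM (8.45 to 30.3). *Enpep* separated the Leydig-like clusters, with 1 UMI or 0.315 CPM in steroidogenic and 71.6 CPM (61.5 to 82.9) in low-steroid cells. It was not particular to the latter, with 14.5 to 54.7 CPM in the interstitial-like clusters and 32.7 CPM in germ-like cells. *Atp6ap2*, a (pro)renin receptor, was broad, from 144 CPM in immune-like cells to 17.7 CPM in the unnamed cluster led by *Cited1* and *Etd*. Steroidogenic and low-steroid Leydig-like cells had 70.9 and 75.2 CPM, above Sertoli-like (55.6 CPM) and germ-like cells (36.0 CPM). *Ace*, *Agtr1b* and *Mas1* did not reach 10 CPM in any cluster.

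**Figure D5:**
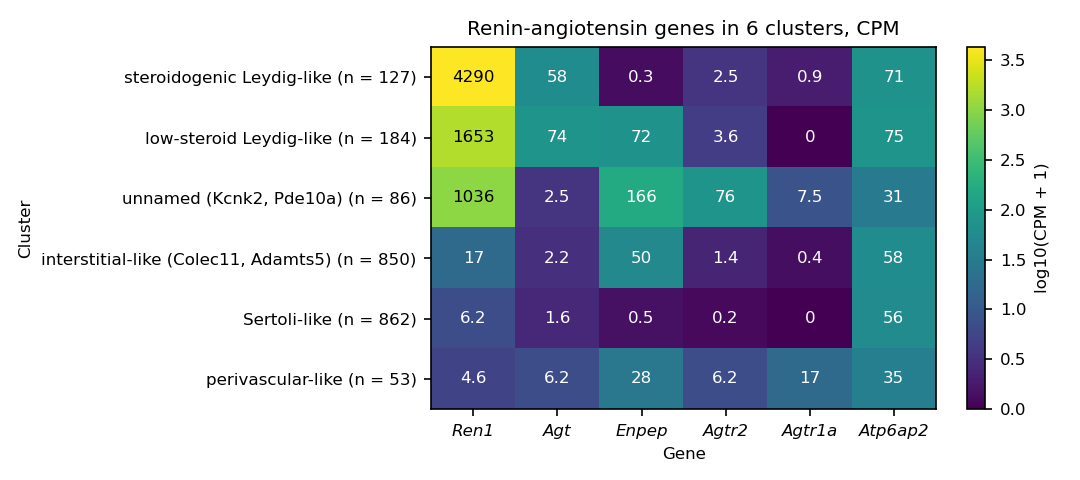
Levels in CPM of *Ren1* and 5 renin-angiotensin genes that reached 10 CPM in a cluster, in 6 of the 17 clusters, coloured on a log10(CPM + 1) scale. *Ren1* was high in both Leydig-like clusters and in the unnamed cluster marked by *Kcnk2* and *Pde10a*, which also had the highest *Enpep* and *Agtr2*.

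Most other listed hormones and receptors were scarce. Of the listed relaxin family genes, only *Insl6* reached 10 CPM (13.6 CPM from 3 UMIs in the cluster led by *Pax8* and *Aldh1a3*), and *Rln1*, *Rln3*, *Insl5*, *Rxfp1*, *Rxfp3* and *Rxfp4* did not. The neurotensin receptors *Ntsr1* and *Ntsr2* and the neuropeptide Y receptors *Npy1r*, *Npy2r*, *Npy4r* and *Npy5r* did not either, nor did *Pyy*. *Sort1*, which binds neurotensin and sorts proteins, had 31.6 CPM (12.7 to 65.2) in the cluster led by *Pax8* and 16.7 CPM in Sertoli-like cells. *Dpp4*, which cleaves neuropeptide Y, had 10.6 CPM in coelomic epithelium-like cells and 0 in Leydig-like cells. *Npr1*, the receptor of the atrial and brain natriuretic peptides, was highest in Sertoli-like cells with 125 CPM (119 to 131), while *Nppa*, *Nppb*, *Corin* and *Ostn* did not reach 10 CPM. Of the pituitary hormone subunits, *Lhb*, *Fshb* and *Cga* stayed below 10 CPM, as did *Fshr* (8.72 CPM in Sertoli-like cells).

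The enzymes that cut and finish prohormones were present in part. *Pcsk5* and *Pcsk6*, proprotein convertases, were highest in steroidogenic Leydig-like cells with 128 CPM (116 to 141) and 78.1 CPM (68.7 to 88.5), beside 116 and 67.2 CPM in low-steroid cells, with overlapping intervals in both cases. *Pcsk5* was broad, with 92.2 to 123 CPM in the 4 interstitial-like clusters, whereas *Pcsk6* had 16.8 to 22.4 CPM there. *Chga*, a granule protein, was seen in 13.4% of steroidogenic cells (10.4 CPM, 7.16 to 14.6) and in no low-steroid cell, where 3 counts allow 1.2 CPM. *Furin* had 19.5 and 11.6 CPM and *Cpe*, a carboxypeptidase, 38.7 and 81.2 CPM in steroidogenic and low-steroid cells, against 343 CPM of *Cpe* in Sertoli-like cells. *Cpd* was likewise higher in low-steroid (37.6 CPM) than in steroidogenic cells (19.2 CPM). *Pam* had 24.8 CPM (19.0 to 31.8) and 14.8 CPM (10.9 to 19.7) in the same order, with overlapping intervals. In the 4 interstitial-like clusters *Cpd* had 46.1 to 71.6 CPM and *Pam* 36.3 to 50.4 CPM. *Furin*, *Cpe*, *Cpd*, *Pam* and *Scg5* all had their highest level in the 18 cells led by *Pax8* and *Aldh1a3*, from 3 UMIs for *Scg5* to 100 for *Cpe*. *Pcsk1*, *Pcsk1n*, *Pcsk2*, *Scg2* and *Chgb* did not reach 10 CPM. *Gnas* and *Adcy9*, which pass on the LHCGR signal, were not highest in Leydig-like cells: *Gnas* had 2490 and 3196 CPM there against 5480 CPM in endothelial-like cells, and *Adcy9* 15.4 and 7.60 CPM against 19.8 CPM in Sertoli-like cells.

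Genes with the most similar pattern were sought by the correlation of log2(CPM + 1) over the 17 clusters, among 10352 genes that reached 20 CPM. The clusters share a library, and few of them carry the pattern. For *Insl3* these were *Crhr1* (Pearson's r = 0.992), *Fdx1*, *Cyp17a1*, *Cyp11a1* and *Stk32a*. For *Lhcgr* they were *Oxtr* (0.972), *Cyp17a1*, *Fdx1*, *Hsd3b1* and *Aldh3b2*. *Nppc* was closest to *Pgbd5* (0.929), *Acsbg1*, *Vsnl1*, *Nr5a1* and *Adh1*, and *Npy* to *Tmem70* (0.939), *Sez6l2*, *Adh1*, *Eci1* and *Ndufc1*. *Nts* was closest to *Rims4* (0.897), *Cul4a*, *Rad51ap2*, *Gsg1l* and *Osr2*, and *Ren1* to *Dnajc25* (0.849), *Sqle*, *Mob4*, *Fads2* and *Rbp4*. *Rxfp2* was closest to *Pnoc* (0.974), *Il33*, *Foxp2*, *Col8a1* and *Agtr2*, all highest in the unnamed cluster marked by *Kcnk2* and *Pde10a*, and *Npr3* to *Rnf165* (0.830), *Foxc2*, *Bicd2*, *Pear1* and *Hdac1*. With rank correlation at most 2 of the 5 genes were the same for any member.

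Markers of other cell types were also measured in the Leydig-like clusters. Genes of the adrenal cortex were present in the steroidogenic cluster, with *Cyp11b1* at 134 CPM in 44.1% of cells, *Cyp21a1* at 90.4 CPM in 31.5% and *Mc2r* at 45.7 CPM in 59.1%, whereas *Cyp11b2* was at 0. The cluster thus met the naming rule for adrenal cortex as well, with a mean log2 ratio of 3 against 4.87 for the Leydig list, which gave the name. In the low-steroid cluster *Cyp11b1* was at 0, *Cyp21a1* at 0.7997 CPM and *Mc2r* at 9.20 CPM, and their part in the hormone levels was not tested. The summed level of 9 Sertoli markers was 727 CPM in steroidogenic and 175.5 CPM in low-steroid cells, against 13019 CPM in Sertoli-like cells, and 637 and 106 CPM of these were *Defb19* alone. The part of Sertoli RNA was not tested. The 7 germ markers summed to 12.6 and 11.6 CPM. Interstitial markers summed to 512 and 1299 CPM. Hemoglobin genes were among the genes with the largest ratios, and 6 steroidogenic cells and 1 low-steroid cell had 100 or more of their UMIs. The largest ratios were those of *Hbb-bs*, *Clps*, *Cyp11b1*, *Hbb-bt* and *Fabp3* upwards and *Hbb-y*, *Pclaf*, *Olfml3*, *Hba-x* and *Serpina3g* downwards. Without those 7 cells the members past 2-fold were the same. In the 372 barcodes with fewer than 200 genes, no member had more than 3 UMIs.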

How the data were processed

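RNA of single testis cells was captured by 10x Genomics Chromium 3′ droplets in 1 control library. The authors deposited UMI counts per gene and barcode, without normalization, made with Cell Ranger on mm10 (GRCm38) joined to a YFP sequence. The matrix header names version 3.1.0, and the submitters' processing notes 3.0.2 and 3.1.0. Of 72595083 UMIs in the library, the 3821 kept cells had 54774213 (2262 to 53807 per cell, median 12082). An interval covers counting error only, and 3 counts are the limit given for a count of 0.

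From the deposited counts, barcodes with under 200 genes (372), 4.04% likely doublets (204; neighbours of artificial doublets) and cells beyond 3 median absolute deviations (1024) were removed. Cells were clustered with Seurat 5.3.0 and sctransform 0.4.2 in R 4.3.3, on 3000 variable genes, 30 components and resolution 0.8. The S and G2/M phase scores and the mitochondrial share of each cell were regressed out before clustering. A cluster was named when its markers had, relative to the rest of the cells and after adding 5 CPM, a mean log2 ratio of 1 or more, and 3 or more of them were seen in 25% of its cells. Where more than 1 list met this rule, the list with the highest mean ratio gave the name. A cluster with a median depth under 1/3 of the library's and none of the markers of its name among its 10 leading genes stayed unnamed, a rule added after the clusters were seen. Thinning drew 5000 UMIs per cell (3000 as an alternative) and left out shallower cells. The scripts were tested on simulated data.

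The 9 members and all lists were chosen with earlier results of these data known. Named genes were the members, partner genes at 10 CPM or more (others by name), the 5 most alike genes of each member at 20 CPM or more, the 5 largest ratios each way between Leydig-like clusters at 50 CPM or more, and markers. Mesonephric epithelium and rete testis markers named no cluster. The rete testis list could name none: it held 3 genes, all were needed, and *Cdh16* had no UMI in kept cells. The 18 cells led by *Pax8* and *Aldh1a3* came nearest to that list, with log2 ratios averaging 3.38, and stayed unnamed for this reason. The study's text gives a cluster with these genes the rete testis identity. Whether these 18 cells are rete testis was not tested. Gene positions follow the GENCODE annotation on GRCm38. Other tools were scikit-learn 1.9.0, pandas 2.3.3, scipy 1.17.1 and numpy 2.4.6 under Python 3.11.15. Alternatives varied the filters, the clustering and the measure of level, and 5 of them were added after the data had been seen. Some genes of the lists are not reported here.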

Additional observations from a re-analysis of the deposited data

How the results depend on the processing

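No paired analysis was possible because there was 1 library. The number of Leydig-like cells, 311 as reported, was 370 with outliers removed beyond 5 deviations and 387 without an outlier filter. It was 238 with no doublets removed and 224 at 2 times the doublet rate. Under the 2 changes of the outlier filter, steroidogenic cells numbered 201 and 221, against 127 as reported. Low-steroid cells numbered 169 and 166, against 184, so which group was larger depended on that filter. With no doublets removed, at 2 times the rate and at resolution 0.4 there was no low-steroid Leydig-like cluster and so no ratio. In the first 2 of these, an unnamed cluster of 101 and 80 cells led by *Nts* formed instead. It had the highest *Nts* level of all clusters (265 and 303 CPM). With 5 CPM added to both sides, *Npr3* was then at least 2-fold lower in Leydig-like cells (1 member in place of 0). In each setting without a low-steroid cluster, *Nppc* was highest in the steroidogenic cluster. It had 443 CPM there with no doublets removed, 462 CPM at 2 times the rate and 381.5 CPM at resolution 0.4. The cluster led by *Nts* had 38.0 CPM of *Nppc* at 2 times the rate. The higher *Nppc* level of low-steroid cells was thus seen only where that cluster formed. In all 9 alternatives with both clusters, log2 ratios kept their sign: 0.78 to 1.30 for *Insl3*, 0.67 to 1.13 for *Lhcgr*, 0.86 to 1.59 for *Ren1*, 3.37 to 3.89 for *Npy*, -1.14 to -0.52 for *Nppc* and -1.60 to -1.10 for *Nts*. With log-normalization before clustering 2 members (*Npy* and *Ren1*) were at least 2-fold higher in steroidogenic cells. With outliers removed beyond 5 deviations 3 were, without *Lhcgr*. With low-steroid cells above the steroid percentile 1 was higher and 2 were lower. At a minimum of 100 UMIs per gene 501 genes were at least 2-fold lower, against 972 at 20. *Npr3* was highest in endothelial-like cells (66.8 CPM) when no doublets were removed, and *Rxfp2* was highest in an unnamed cluster (28.2 to 35.1 CPM) in all 8 other clusterings. Of the counts of cells and genes that answer the comparisons, 10 moved and 93 did not, and of single values 122 moved and 405 did not. A count of genes or members was called moved only past a set fold, so the loss of *Lhcgr* above counts as not moved. Single values were judged by their counting interval, except the lists of most alike genes, which were judged by how many genes were kept. The 1 library and its depth limit *Rxfp2*, *Npr2* and *Npr3* most, with 36, 261 and 283 UMIs.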
